A study of Homo sapiens with 87 samples.

Results

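The forkhead (FOX) genes were examined across HAP1 cells that had lost 1 gene of the BAF chromatin-remodelling complex. Members were taken by name, as every symbol made of FOX, a class letter from A to S and a number that stood in both deposited gene tables. The rule gave 43 genes of 35438 in the knockout table. The low-count filter left 31 of them in the knockout table and 28 among the double-loss libraries.

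Forkhead factors bind DNA through a winged-helix domain and share a core binding sequence. Several act as pioneer factors, which bind closed chromatin and open it for other factors, and BAF complexes are among the remodellers that evict or slide nucleosomes at such sites. FOXA factors act in endoderm, liver and hormone-responsive epithelia, FOXD3 in pluripotent cells and neural crest, FOXF and FOXL1 in mesenchyme beside gut and lung epithelium, FOXJ1 in multiciliated cells and FOXP2 in neurons of speech and motor circuits. FOXO factors are switched off by AKT, FOXM1 drives mitotic genes, and FOXK factors act in metabolism and autophagy.

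HAP1 is a near-haploid human line that descends from a chronic myeloid leukaemia. In the knockout table stand 75 libraries, 3 for each of 25 groups: unedited wild type (clone C631) and 24 clones, each with a knockout of 1 gene. The genes are ACTB, ARID1A (clones 618-10 and 618-3), ARID1B, ARID2, BCL11A, BCL11B, BCL7A, BCL7B, BRD7, BRD9, DPF1, DPF2, DPF3, PBRM1, PHF10, SMARCA2, SMARCA4 (clones 2878-4 and 2878-6), SMARCC1, SMARCC2, SMARCD1, SMARCD2 and SMARCD3. A double-loss table adds 12 libraries, 2 for each of 6 groups: wild type with a control knockdown, wild type with a joint knockdown of SMARCA4 and ARID2, ARID2 knockout with a control or a SMARCA4 knockdown, and SMARCA4 knockout with a control or an ARID2 knockdown. SMARCA4 and SMARCA2 are the ATPases of the complex, ARID1A and ARID1B belong to canonical BAF, ARID2, PBRM1, BRD7 and PHF10 to the PBAF form, and BRD9 to a non-canonical form. For the 20 genes other than ARID1A and SMARCA4 there is 1 group each, from a single clone where the labels name it (for SMARCC2 they give none), so the lost gene and the clone cannot be told apart. Whether a group's replicates were grown as separate cultures is not said in the labels, so the p-values measure only the spread between these libraries.

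Total counts ran from 14917644 to 29993652 in the knockout libraries, with a median of 20042760. The double-loss libraries held 9144150 to 19789622 counts. No value was below 1 in either table, so a count of 1 may stand for no read, and 3 counts in a library were worth between 0.1 and 0.201 CPM (the count scaled by the library's total) for the 75 knockout libraries. SMARCA4 mRNA lay at 13.48 ± 3.49 CPM in clone 2878-4 and at 14.69 ± 1.42 in clone 2878-6, against 252.7 ± 18 in wild type (SD, n = 3). ARID1A mRNA lay at 116.9 ± 8.85 CPM in clone 618-10 and 93.13 ± 5.32 in clone 618-3 against 216.9 ± 26.4, and ARID2 mRNA at 28.74 ± 1.34 in its knockout against 46.06 ± 5.85, so transcripts of these targets remained. The joint knockdown differed between its 2 libraries, with SMARCA4 at 43.12 and 129.5 CPM. The 12 blood lineage markers summed to 62.87 to 76.2 CPM in wild type and to 26.98 to 123.5 over all knockout libraries, with 3 of them (SPI1, GATA1 and MPO) at 3 counts or fewer in every one. In bulk RNA, fewer cells that express a gene and less RNA in each cell cannot be told apart. The authors' log2 TPM values carry no length correction, so levels are compared below within a gene and not between genes.

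The start regions of FOXA1, FOXD3 and FOXP2, chosen by name, are shown first. Each is RefSeq sequence of build GRCh38.p14 from 250 bases before to 50 bases after an annotated start, 5′ to 3′ on the gene's strand. They lie at chr14:37595200-37595499 (FOXA1, minus strand), chr1:63322317-63322616 (FOXD3, plus strand), chr7:114414565-114414864 and chr7:114426252-114426551 (2 of the FOXP2 starts, plus strand). Which start HAP1 uses was not measured. Capitals mark a GC box (GGGCGG) or a CCAAT box (CCAAT, here on the opposite strand), each searched on both strands beside the forkhead core TGTTTAC and the AP-1 site TGANTCA, of which these 4 windows hold none.
FOXA1: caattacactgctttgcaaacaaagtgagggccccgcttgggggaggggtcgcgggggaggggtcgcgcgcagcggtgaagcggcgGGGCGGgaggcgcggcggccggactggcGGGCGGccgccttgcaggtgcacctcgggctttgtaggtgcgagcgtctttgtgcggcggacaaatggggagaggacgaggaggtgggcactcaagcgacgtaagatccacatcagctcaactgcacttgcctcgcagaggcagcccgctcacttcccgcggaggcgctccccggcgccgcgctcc
FOXD3: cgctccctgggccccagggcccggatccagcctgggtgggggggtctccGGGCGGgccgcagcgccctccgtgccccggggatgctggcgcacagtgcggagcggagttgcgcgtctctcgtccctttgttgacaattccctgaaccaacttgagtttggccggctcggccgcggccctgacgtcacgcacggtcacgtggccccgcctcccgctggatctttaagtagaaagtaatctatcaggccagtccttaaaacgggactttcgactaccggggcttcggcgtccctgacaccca
FOXP2, chr7:114414565: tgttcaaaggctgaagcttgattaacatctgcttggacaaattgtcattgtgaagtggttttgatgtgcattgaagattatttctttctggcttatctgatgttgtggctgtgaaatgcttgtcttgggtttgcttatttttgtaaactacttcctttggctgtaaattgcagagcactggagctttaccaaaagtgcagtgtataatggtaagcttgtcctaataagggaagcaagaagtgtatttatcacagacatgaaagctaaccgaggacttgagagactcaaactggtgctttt
FOXP2, chr7:114426252: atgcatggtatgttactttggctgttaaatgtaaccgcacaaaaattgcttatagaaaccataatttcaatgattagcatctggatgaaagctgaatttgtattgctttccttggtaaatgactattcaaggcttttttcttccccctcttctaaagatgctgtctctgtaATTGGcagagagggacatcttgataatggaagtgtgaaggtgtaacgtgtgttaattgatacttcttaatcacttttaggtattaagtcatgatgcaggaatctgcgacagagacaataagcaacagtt
The FOXA1 and FOXD3 windows were 69.3% and 66.3% G or C, and the FOXP2 windows 38.7% and 36.3%. Over the 43 windows kept for 32 of the 43 members, the median was 68.0% against 58.7% over all 35116 windows, and the ratio of observed to expected CpG was 0.84 against 0.58. Windows on the chromosome of FOXH1 were left out for members but kept among all windows. Some members, FOXP1 and FOXO3 among them, hold several windows, so windows do not stand for single genes. A GC box stood in 67.4% of the members' windows and in 45% of all windows, a CCAAT box in 23.3% against 34.6%, a TATA box (TATAAA) in 6.98% against 11.5%, an AP-1 site in 9.3% against 7.71% and the forkhead core in 4.65% against 3.42%. These are letter matches and were not tested as sites.

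Across the 24 clones, 13 forkhead genes rose or fell in at least 1 clone and 18 of those tested did in none. A difference was called at an adjusted p of at most 0.05 and a log2 fold change of at least 1 in size, from edgeR's quasi-likelihood test with Benjamini-Hochberg adjustment over all 16159 genes tested, which stand behind every call below. Of 744 pairs of a tested member and a clone, 83 were called (11.2%), beside 4.7% of all pairs of a gene and a clone. Members were higher than wild type in 46 pairs (6.18%, beside 2.46% of all) and lower in 37 (4.97%, beside 2.24%). Between 1 and 9 members were called in each clone. Since each clone is compared with the same 3 wild-type libraries, the comparisons are not independent of each other.

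**Figure D1:**
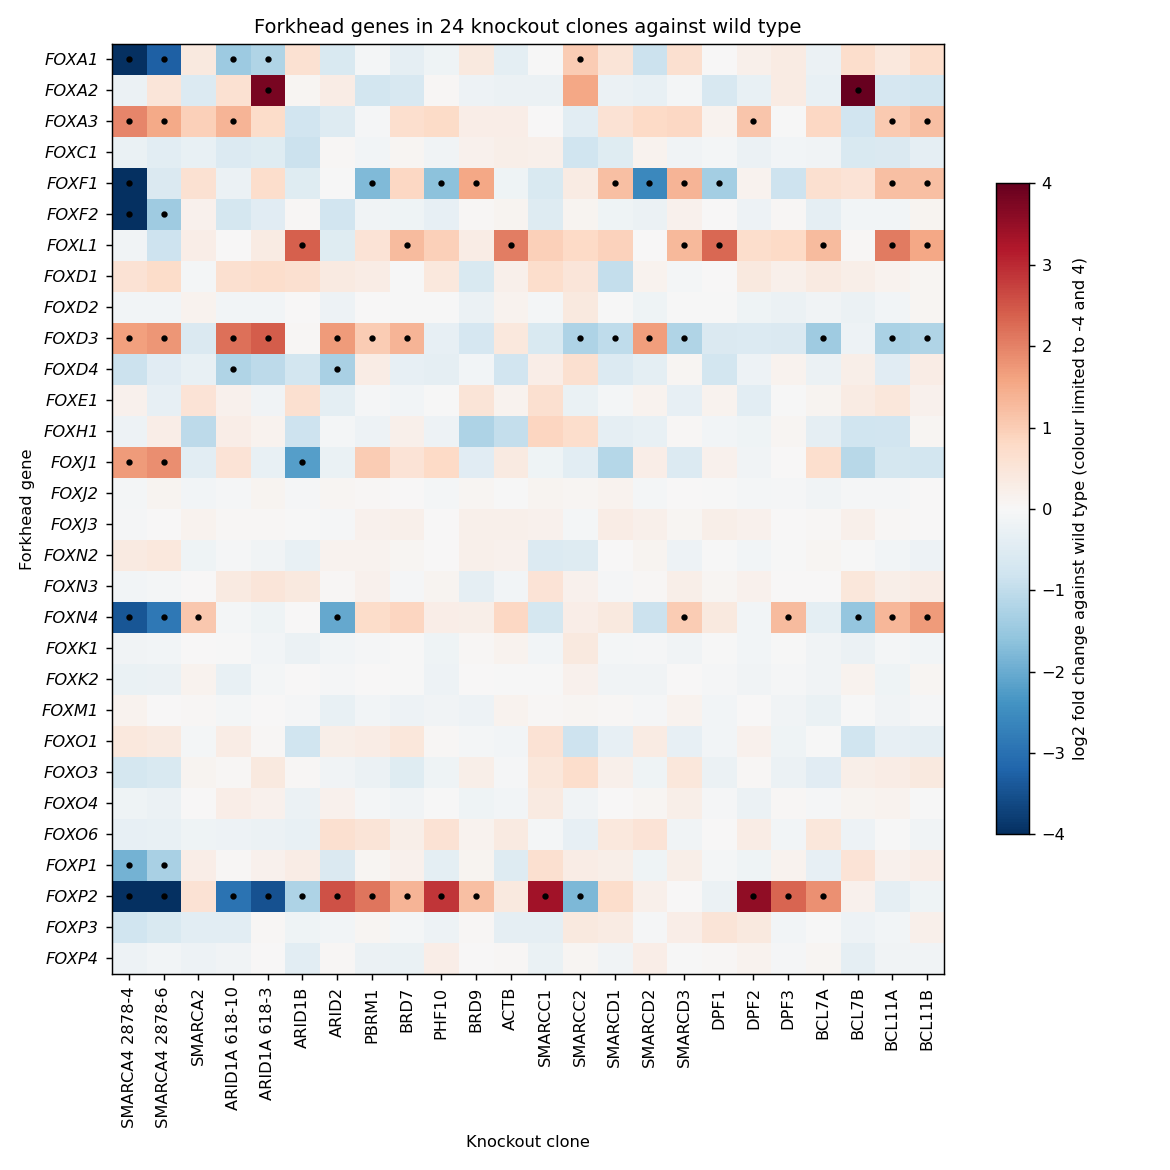
Log2 fold change of 30 forkhead genes (rows) in each of 24 knockout clones (columns) against wild type, from the fit across all genes, with colour limited at -4 and 4 and a dot on each called difference. Calls gather in 12 of the rows, with FOXP2 (15 clones), FOXD3 (14) and FOXF1 (10) called most often, and the SMARCA4 columns hold the most dots.

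Called members differed in direction. FOXA1, FOXD3, FOXF1, FOXJ1, FOXN4 and FOXP2 rose in some clones and fell in others, FOXA2, FOXA3 and FOXL1 were called only as higher, and the other 4, FOXD4, FOXF2 and FOXP1 among them, only as lower.

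In SMARCA4 clone 2878-4 FOXA3, FOXD3 and FOXJ1 rose and FOXA1, FOXF1, FOXF2, FOXN4, FOXP1 and FOXP2 fell, which is 3 higher and 6 lower beside 5.99% and 5.28% of all genes (11.3% in all). In SMARCA4 clone 2878-6 FOXA3, FOXD3 and FOXJ1 rose and members that included FOXA1, FOXF2, FOXN4, FOXP1 and FOXP2 fell, which is 3 higher and 6 lower beside 5.53% and 4.72% of all genes (10.2% in all). Loss of the ATPase SMARCA4 went with the most calls, at 29% of the members tested in either clone. These clones also had the most calls over all genes (11.3% and 10.2%). In ARID1A clone 618-10 FOXA3 and FOXD3 rose and members that included FOXA1, FOXD4 and FOXP2 fell, which is 2 higher and 4 lower beside 3.84% and 2.44% of all genes (6.28% in all). In ARID1A clone 618-3 FOXA2 and FOXD3 rose and members that included FOXA1 and FOXP2 fell, which is 2 higher and 3 lower beside 3.53% and 2.57% of all genes (6.1% in all). In ARID1B knockout FOXL1 rose and members that included FOXJ1 and FOXP2 fell, which is 1 higher and 3 lower beside 3.46% and 3.4% of all genes (6.86% in all). The canonical subunits ARID1A and ARID1B had 19.4%, 16.1% and 12.9% of members called, with FOXP2 lower in all 3 clones. In ARID2 knockout FOXD3 and FOXP2 rose and FOXD4 and FOXN4 fell, which is 2 higher and 2 lower beside 1.97% and 3.56% of all genes (5.53% in all). In PBRM1 knockout FOXD3 and FOXP2 rose and FOXF1 fell, which is 2 higher and 1 lower beside 1.25% and 1.71% of all genes (2.96% in all). In BRD7 knockout FOXD3, FOXL1 and FOXP2 rose, which is 3 higher and 0 lower beside 1.62% and 1.94% of all genes (3.55% in all). FOXD3 and FOXP2 rose in each of these PBAF clones, but FOXD3 was not called in the knockout of PHF10, also a PBAF subunit. In PHF10 knockout FOXP2 rose and FOXF1 fell, which is 1 higher and 1 lower beside 1.5% and 1.18% of all genes (2.68% in all). In BRD9 knockout FOXF1 and FOXP2 rose, which is 2 higher and 0 lower beside 1.34% and 1.94% of all genes (3.28% in all). In SMARCC1 knockout FOXP2 rose, which is 1 higher and 0 lower beside 3.56% and 2.53% of all genes (6.1% in all). FOXP2 rose in these clones without a call for FOXD3. In BCL11A knockout FOXA3, FOXF1, FOXL1 and FOXN4 rose and FOXD3 fell, which is 4 higher and 1 lower beside 2.48% and 1.66% of all genes (4.14% in all). In BCL11B knockout FOXA3, FOXF1, FOXL1 and FOXN4 rose and FOXD3 fell, which is 4 higher and 1 lower beside 2.19% and 1.62% of all genes (3.81% in all). In SMARCD3 knockout FOXF1, FOXL1 and FOXN4 rose and FOXD3 fell, which is 3 higher and 1 lower beside 1.75% and 1.72% of all genes (3.47% in all). These 3 clones shared lower FOXD3 and higher FOXF1, FOXL1 and FOXN4. In SMARCD1 knockout FOXF1 rose and FOXD3 fell, which is 1 higher and 1 lower beside 2.01% and 2.57% of all genes (4.57% in all). In SMARCD2 knockout FOXD3 rose and FOXF1 fell, which is 1 higher and 1 lower beside 1.44% and 1.36% of all genes (2.8% in all). In SMARCC2 knockout FOXA1 rose and FOXD3 and FOXP2 fell, which is 1 higher and 2 lower beside 3.29% and 3.2% of all genes (6.49% in all). FOXD3 was called in all 3 of these clones, as higher in SMARCD2 and as lower in the others. In BCL7A knockout FOXL1 and FOXP2 rose and FOXD3 fell, which is 2 higher and 1 lower beside 2.28% and 1.26% of all genes (3.54% in all). In BCL7B knockout FOXA2 rose and FOXN4 fell, which is 1 higher and 1 lower beside 3.14% and 2.98% of all genes (6.12% in all). In ACTB knockout FOXL1 rose, which is 1 higher and 0 lower beside 3.17% and 1.92% of all genes (5.1% in all). The BCL7A and BCL7B clones had 9.68% and 6.45% of members called and shared none, too few calls to read as a difference between them. In DPF1 knockout FOXL1 rose and FOXF1 fell, which is 1 higher and 1 lower beside 0.668% and 0.823% of all genes (1.49% in all). In DPF2 knockout FOXA3 and FOXP2 rose, with calls of 2 higher and 1 lower beside 2% and 0.984% of all genes (2.98% in all). In DPF3 knockout FOXN4 and FOXP2 rose, which is 2 higher and 0 lower beside 0.365% and 0.978% of all genes (1.34% in all). FOXP2 rose in DPF2 and DPF3, and the DPF clones had 2 or 3 members called. In SMARCA2 knockout FOXN4 rose, which is 1 higher and 0 lower beside 0.774% and 1.42% of all genes (2.19% in all).

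A test that does not lean on wild type asked whether a member differed among the 25 groups at all, with a range of group means of at least 1 on the log2 scale. By it 19 of the 31 tested members differed, beside 37.3% of all genes, and their median range was 1.41 against 0.947 over all genes. FOXP2 had a range of 7.14, FOXF1 of 6.78, FOXA1 of 6.07 and FOXA2 of 5.31. The lowest group was SMARCA4 clone 2878-4 for FOXP2 and FOXF1, and BCL11B knockout for FOXA2. Each of these stood at 3 counts or fewer in every library. The ranges of FOXP2, FOXF1 and FOXA2 thus depend on how the lowest counts are treated. FOXC1, FOXD1, FOXE1, FOXH1, FOXO1 and FOXO3 differed among groups without being called in any clone. Wild type was also compared with the mean of the 24 clones. There 0 of the 31 members were called by edgeR, beside 1.21% of genes. At so low a share, 0 calls do not show that wild type resembled its clones. An unadjusted p under 0.05 was reached by 8 members and an adjusted p under it by 3, all with a log2 difference under 1 in size. DESeq2 was not run on that comparison.

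Of the FOXA class, FOXA1 fell when SMARCA4 or ARID1A was lost, FOXA2 appeared in 2 clones and FOXA3 rose in 6. FOXA1 is a pioneer factor of endoderm, breast and prostate epithelium. In wild type its 3 libraries read 43.87, 34.12 and 33.85 CPM. SMARCA4 clone 2878-4 read 1.461, 1.44 and 0.4664, -5.04 on the log2 scale (SE 0.198, adjusted p = 1.24e-29, edgeR). Clone 2878-6 read 3.72, 4.118 and 3.645, at -3.27 (SE 0.168, adjusted p = 3.52e-24). Both clones lay below every wild-type library without overlapping each other, and 2878-4 differed from 2878-6 by -1.77 (adjusted p = 1.88e-08). ARID1A clone 618-10 read 16.23, 13.14 and 11.74 CPM (-1.45, SE 0.149, adjusted p = 7.67e-12) and clone 618-3 read 19.62, 16.85 and 12.94 (-1.20, SE 0.147, adjusted p = 1.87e-09). These clones overlapped each other and lay below wild type. SMARCC2 knockout read 74.42, 80.45 and 76.76 CPM, at 1.02 (SE 0.141, adjusted p = 6.2e-08), the only clone in which FOXA1 was called higher. That call rested on the fold threshold: it fell to 0.93 without the replicate-2 libraries, 0.98 without the replicate-3 libraries, 0.95 without wild-type replicate 2 or 3, and 0.83 with offsets for GC content, with an adjusted p of 0.00225 or less in each. Fold changes in the SMARCC2 clone followed the GC content of genes (Spearman's rho 0.456 across genes, which are not independent replicates, against -0.0965 to 0.207 in the other clones), and its A549 markers summed to 12.45 to 15.2 CPM against 5.889 to 8.362 in wild type. The A549 markers summed to 12.11 to 16.71 CPM in BCL11B knockout. There FOXA1 was not called, though its libraries read 61.41 to 63.47 CPM, above every wild-type library. The part of these markers in the result was not tested.

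The mean FOXA1 level ran in order from 77.21 CPM in SMARCC2 knockout through 62.2 in BCL11B, 61.24 in BCL7B, 59.91 in SMARCD3, 56.32 in ARID1B, 54.91 in SMARCD1, 50.56 in BCL11A, 49.32 in BRD9, 48.44 in SMARCA2, 46.24 in DPF3 and 43.73 in DPF2. DPF1 at 37.6, SMARCC1 at 37.2, PBRM1 at 35.99, PHF10 at 32.63 and BCL7A at 32.1 lay around the 37.28 of wild type. Below them FOXA1 read 29.27 in BRD7, 28.19 in ACTB, 24.37 in ARID2 and 20.41 in SMARCD2, before the ARID1A clones at 16.47 and 13.7 and the SMARCA4 clones at 3.828 and 1.122. Neighbours in this order had separate libraries at 4 of 24 steps, namely below SMARCC2, below DPF2, between ARID1A and SMARCA4, and between the SMARCA4 clones. TTC6, the gene beside FOXA1, was called in the 5 clones in which FOXA1 was: it fell in both SMARCA4 clones (-3.19 and -2.81) and both ARID1A clones (-1.49 and -1.61) and rose in SMARCC2 (1.44). TTC6 also fell in ARID2 (-1.44) and SMARCD2 (-1.56), where FOXA1 was not called. Of 18 transcripts listed as lying beside forkhead genes 4 could be tested, and all calls among them were of TTC6.

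FOXA2, the pioneer factor of definitive endoderm and floor plate, was near the lowest value in most groups. It read 2, 2 and 1 counts in the wild-type libraries and stood at the table's lowest value in 40 of 75 libraries. BCL7B knockout read 100, 148 and 125 counts, or 5.079, 6.727 and 5.344 CPM, which is at least 39.6-fold above wild type against a floor of 3 counts per library (fitted log2 fold change 6.04, SE 0.285, adjusted p = 3.71e-25, edgeR). ARID1A clone 618-3 read 14, 26 and 29 counts, at least 8.38-fold above wild type on that floor (fitted 3.79, SE 0.321, adjusted p = 9.94e-15). ARID1A clone 618-10, with the same gene targeted, read 2, 2 and 3 counts, at least 7.47-fold below clone 618-3 (fitted -3.19, adjusted p = 2.82e-11). No library of the BCL7B or 618-3 groups overlapped another group. SMARCC2 knockout averaged 0.2746 CPM and ARID1A clone 618-10 0.1263, and every other group lay between 0.04725 in BCL11B knockout and 0.1146 in SMARCA4 clone 2878-6. FOXA2 passed the low-count filter through the groups in which it was high. In the BCL7B clone the fibroblast markers summed to 20.77 to 25.74 CPM against 103.3 to 124.8 in wild type, as low as in ARID1B knockout (21.65 to 24.98), where FOXA2 was not called. The HEK293 markers of the BCL7B clone summed to 412.9 to 479.9 against 804.4 to 886.3, and its A549 markers to 6.09 to 11.67 against 5.889 to 8.362. Its blood markers summed to 99.19 to 110.8 against 62.87 to 76.2, where ARID1B knockout lay on the other side of wild type (30.11 to 37.66). The part of these markers in the FOXA2 result was not tested.

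FOXA3, a factor of liver metabolism, read 1.009, 0.4945 and 0.7232 CPM in wild type. It read 3.091, 2.926 and 2.472 in SMARCA4 clone 2878-4, at 1.96 on the log2 scale (SE 0.264, adjusted p = 9.89e-09, edgeR). Clone 2878-6 read 2.049, 2.53 and 1.686, at 1.51 (adjusted p = 5.79e-06), and ARID1A clone 618-10 read 2.357, 2.226 and 1.141, at 1.36 (adjusted p = 8.49e-05). All 3 clones lay above the wild-type libraries, so within the SMARCA4 clones FOXA3 rose where FOXA1 fell. FOXA3 also rose in BCL11B (1.21), DPF2 (1.11) and BCL11A (1.06) knockout. Those 3 calls and that of ARID1A clone 618-10 were lost without the replicate-2 libraries (0.92, 0.91, 0.90 and 1.00), and the first 3 also without wild-type replicate 2 (0.98, 0.88 and 0.83).

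Of 25 genes listed as FOXA targets or endoderm genes 10 were tested. In BCL7B knockout, where FOXA2 was highest, 1 rose and 0 fell (EOMES, an endoderm and mesoderm T-box factor, 1.22), with a list median of -0.133 against -0.0118 over all genes. ARID1A clone 618-3 had 3 higher and 0 lower, namely EOMES (1.62), GATA6 (2.47), a zinc-finger factor of endoderm and heart, and the chemokine receptor CXCR4 (2.07), with a median of 0.125 against -0.00994. ARID1A clone 618-10, in which FOXA2 was not called, had 4 higher and 0 lower: GATA6 (2.39), CXCR4 (1.83), GATA4 (1.76) and EOMES (1.28), with a median of 0.534 against -0.012. GATA6 rose in the SMARCA4 clones too (2.61 and 2.34), where PROX1, a liver and lymphatic homeobox factor, fell (-2.18 and -2.06). Over all genes 3.14% were called higher and 2.98% lower in BCL7B knockout. These shares were 3.53% and 2.57% in ARID1A clone 618-3 and 3.84% and 2.44% in 618-10.

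FOXD3 was called in 14 clones, as higher in 8 and as lower in 6. FOXD3 keeps pluripotent cells and neural crest progenitors undifferentiated. The wild-type libraries read 6.444, 7.148 and 7.006 CPM. ARID1A clone 618-3 read 35.52, 40.31 and 35.91, at 2.42 on the log2 scale (SE 0.151, adjusted p = 5.18e-20, edgeR). Clone 618-10 read 33.27, 29.64 and 33.31, at 2.21 (SE 0.15, adjusted p = 1.83e-18), and SMARCA4 clone 2878-6 read 23.51, 23.02 and 22.28, at 1.75 (SE 0.149, adjusted p = 5.19e-15). Each of these groups lay wholly above wild type, and the ARID1A clones lay above every other group. BCL7A knockout read 2.474, 2.888 and 2.404 CPM, at -1.42 (SE 0.164, adjusted p = 7.03e-10). BCL11A read 2.766, 2.568 and 3.26, at -1.28 (SE 0.162, adjusted p = 1.1e-08), and SMARCC2 read 2.134, 2.827 and 4.148, at -1.24 (SE 0.161, adjusted p = 1.16e-08). These 3 groups overlapped each other and lay below wild type.

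The order of FOXD3 means ran from the ARID1A clones (37.25 and 32.07 CPM) to SMARCA4 clone 2878-6 (22.94), ARID2 (21.9, log2 fold change 1.69), SMARCD2 (21.76, 1.66), SMARCA4 clone 2878-4 (21.11, 1.64), BRD7 (18.01, 1.37) and PBRM1 (14.28, 1.03). ARID2, BRD7 and PBRM1 are subunits of the PBAF form, as is PHF10, in whose knockout FOXD3 was not called. ACTB at 9.184, ARID1B at 7.145, BCL7B at 5.944, PHF10 at 5.421, DPF2 at 4.767, DPF1 at 4.628, DPF3 at 4.624, SMARCA2 at 4.566, SMARCC1 at 4.505 and BRD9 at 4.38 CPM were not called against the 6.866 of wild type. At the low end stood SMARCD1 (3.446, -1.02), SMARCD3 (3.086, -1.19), BCL11B (3.049, -1.21), SMARCC2 (3.036), BCL11A (2.865) and BCL7A (2.589). Neighbours were separate at 7 of 24 steps, and no step between the SMARCA4, ARID2 and SMARCD2 groups was. The PBRM1 call was lost without the replicate-2 libraries (0.92) or wild-type replicate 1 (0.98), and the SMARCD1 call without the replicate-2 libraries (-0.94), without wild-type replicate 2 (-0.99) or without the low-count filter, at -1.0. Over 13276 genes, the group nearest to BCL11A was BCL11B, with a root mean square log2 difference of 0.252 against 0.416 to wild type. BCL11B and SMARCD3 were nearest to each other, at 0.238 against 0.41 and 0.411 to wild type. SMARCD1 was nearest to BCL11B (0.361 against 0.452) and BCL7A to BCL11A (0.375 against 0.407). SMARCC2 was nearest to DPF3 (0.485 against 0.503). The clones with lower FOXD3 were thus mostly nearer to each other than to wild type.

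Of 17 neural crest genes 10 were tested, and in both ARID1A clones the same 4 were called: TFAP2A (1.51 in 618-10 and 1.81 in 618-3), ETS1 (1.89 and 1.93) and NGFR (2.06 and 1.45) rose, and MSX2 (-1.21 and -1.49) fell. TFAP2A and ETS1 are crest specifiers, NGFR is a surface receptor used to isolate crest cells and MSX2 is a homeobox factor of the neural plate border. The list medians were 0.473 and 0.179, against -0.012 and -0.00994 over all genes. SMARCA4 clone 2878-4 had 4 higher and 1 lower and clone 2878-6 had 3 and 1, with ETS1 at 2.90 and 2.99 and medians of 0.0298 and -0.122. ARID2 knockout had 4 higher and 2 lower (median 0.493), among them ETS1 (2.17) and MITF, the melanocyte factor (1.29). In BCL11A knockout, where FOXD3 fell, 3 rose and 0 fell. SOX10, SOX9, PAX3 and 4 further genes of the list did not pass the low-count filter. Over all genes 3.84% were called higher and 2.44% lower in ARID1A clone 618-10, and 3.53% and 2.57% in 618-3. These shares were 5.99% and 5.28% in SMARCA4 clone 2878-4 and 5.53% and 4.72% in 2878-6. In ARID2 knockout they were 1.97% and 3.56%, and in BCL11A knockout 2.48% and 1.66%.

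FOXD4 read 1.233, 0.5844 and 0.7232 CPM in wild type and was called lower in ARID2 knockout (-1.31, adjusted p = 0.0177, edgeR) and ARID1A clone 618-10 (-1.20, adjusted p = 0.0274). Both calls are uncertain, since 63.1% of the 50-base runs in FOXD4 transcripts also occur in other genes, chiefly its FOXD4L copies, and reads can be split among them. They were also lost without wild-type replicate 1 (-0.96 and -0.86) and without the replicate-2 libraries (-1.22 and -1.16). The ARID2 call was further lost without the replicate-3 libraries (-1.20) and the ARID1A call without the replicate-1 libraries (-0.76). FOXD1, a factor of kidney stroma, ranged from a log2 fold change of -0.94 in SMARCD1 to 0.75 in SMARCA4 clone 2878-6 with an adjusted p of at most 0.05 in 11 clones. FOXD2 ranged from -0.24 to 0.39 and reached that p in 0.

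FOXP2 was called in 15 of 24 clones, more than any other member, with 9 higher and 6 lower. FOXP2 is a repressor studied for its part in speech circuits, and its class is the one that dimerises through a leucine zipper. Its wild-type libraries read 2.185, 1.529 and 2.26 CPM. DPF2 knockout read 18.2, 27.44 and 24.87, at 3.55 on the log2 scale (SE 0.194, adjusted p = 4.61e-22, edgeR). SMARCC1 read 19.48, 21.31 and 20.79, at 3.36 (SE 0.193, adjusted p = 1.25e-21), and PHF10 read 15.88, 13.39 and 14.04, at 2.86 (SE 0.192, adjusted p = 2.37e-18). These groups lay far above the wild-type libraries, and DPF2 and SMARCC1 overlapped each other. SMARCA4 clone 2878-4 read 1, 1 and 2 counts against 39, 34 and 50 in wild type, at least 13.3-fold lower against a floor of 3 counts per library (fitted -4.77, adjusted p = 5.08e-17). Clone 2878-6 read 1, 2 and 2 counts, at least 13.3-fold lower on the same floor (fitted -4.48, adjusted p = 1.39e-16). ARID1A clone 618-3 read 3, 3 and 4 counts (-3.47, SE 0.306, adjusted p = 3.95e-14). The SMARCA4 counts are at the level that may stand for no read.

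In order, FOXP2 averaged 23.5 CPM in DPF2, 20.53 in SMARCC1, 14.44 in PHF10, 11.49 in ARID2 (log2 fold change 2.54), 9.876 in DPF3 (2.32), 8.933 in PBRM1 (2.14), 7.177 in BCL7A (1.84), 5.18 in BRD7 (1.36) and 4.622 in BRD9 (1.20). ARID2, PBRM1, PHF10 and BRD7, the subunits placed above in the PBAF form, were thus all among the 9 clones in which it rose. SMARCD1 at 3.274, SMARCA2 at 2.993, ACTB at 2.57, SMARCD2 at 2.295, BCL7B at 2.251, SMARCD3 at 2.034, BCL11B at 1.785, DPF1 at 1.695 and BCL11A at 1.547 CPM were not called against the 1.991 of wild type. It fell in ARID1B (0.8343, -1.24), SMARCC2 (0.6127, -1.80), ARID1A clone 618-10 (0.2524, -2.96) and clone 618-3 (0.1756), and in the SMARCA4 clones (0.08143 and 0.06531). Libraries of neighbours were separate at 7 of 24 steps. FOXP2 and FOXD3 moved apart in some clones, since FOXD3 rose and FOXP2 fell in the SMARCA4 and ARID1A clones while both rose in ARID2, PBRM1 and BRD7.

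**Figure D2:**
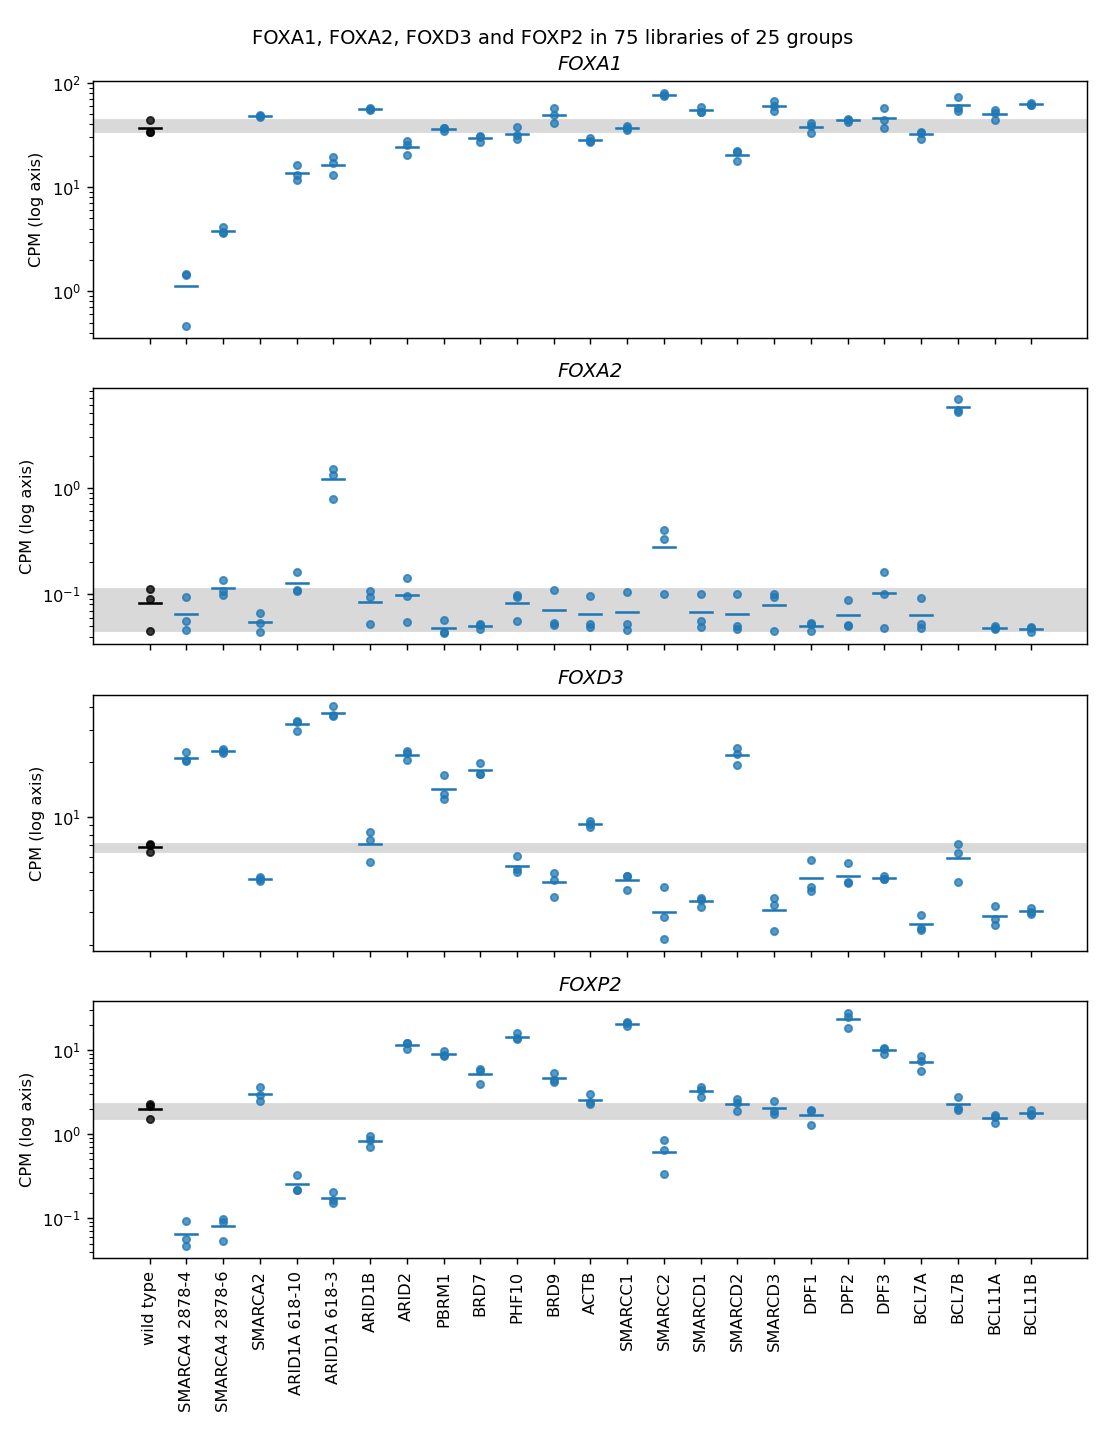
CPM on a log axis of FOXA1, FOXA2, FOXD3 and FOXP2 in the 75 libraries of the knockout table (points) with the group mean (bar) and the range of the 3 wild-type libraries (grey band). FOXA1 and FOXP2 lie lowest in the SMARCA4 clones, FOXA2 is high in BCL7B and ARID1A clone 618-3, and FOXD3 is highest in the ARID1A clones.

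Of 8 genes linked to FOXP2 as targets or partners 7 were tested. In each SMARCA4 clone 4 rose and 2 fell, with list medians of 1.25 and 1.55 against -0.0198 and -0.0208 over all genes. VLDLR, a reelin receptor, rose (2.29 and 2.10), as did SRPX2 (1.26 and 2.96), DISC1 (1.76 and 1.55) and SYNPO2 (1.25 and 1.95). The receptor kinase MET (-2.84 and -3.87) and the neurexin-like CNTNAP2 (-6.41 and -6.97) fell. Over all genes 5.99% were called higher and 5.28% lower in clone 2878-4, and 5.53% and 4.72% in 2878-6. In DPF2 knockout these shares were 2% and 0.984%, and in SMARCC1 knockout 3.56% and 2.53%. In the clones with the most FOXP2, DPF2 knockout had 1 higher and 1 lower (DISC1 at 1.22 and MET at -1.39; median -0.619 against -0.00852), and SMARCC1 had 2 of each, with SRPX2 at 3.14 and CNTNAP2 at -6.03 (median -0.491 against -0.0142).

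FOXP1, a repressor of lymphoid, cardiac and neural cells, was called only in the SMARCA4 clones, as lower. Wild type read 20.28, 16.18 and 17.45 CPM, clone 2878-4 read 4.833, 4.365 and 5.037 (-1.89, SE 0.135, adjusted p = 3.86e-18, edgeR) and clone 2878-6 read 7.656, 7.839 and 6.106 (-1.31, SE 0.13, adjusted p = 1.2e-12). Neither clone overlapped wild type. FOXP4 ranged from a log2 fold change of -0.42 in ARID1B to 0.26 in SMARCD2, and FOXP3, the factor of regulatory T cells, from -0.80 to 0.51, with no call for either gene.

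The FOXF, FOXL and FOXC genes stand in a pair of clusters, with FOXC2, FOXF1 and FOXL1 together in 1 and FOXC1, FOXF2 and FOXQ1 in the other. FOXF1, a Hedgehog-responsive factor of lung and gut mesenchyme, was called in 10 clones, 5 in each direction. Wild type read 6.668, 7.193 and 6.554 CPM. SMARCA4 clone 2878-4 read 1, 2 and 2 counts, at least 46-fold below wild type against a floor of 3 counts per library (fitted -6.25, adjusted p = 2.88e-27, edgeR). The other SMARCA4 clone, 2878-6, averaged 4.54 CPM and was not called (-0.58), and the clones differed at least 30.5-fold on that floor. SMARCD2 knockout read 0.9381, 1.308 and 1.146 CPM (-2.59, SE 0.181, adjusted p = 1.11e-17) and PBRM1 read 1.174, 2.458 and 2.448 (-1.78, SE 0.168, adjusted p = 1.36e-12). FOXF1 fell in PHF10 (-1.65) and DPF1 (-1.37) as well, and all 5 groups lay below wild type. BRD9 knockout read 19.18, 23.04 and 17.72 CPM (1.54, SE 0.149, adjusted p = 3.3e-12), SMARCD3 read 17.83, 18.06 and 17.91 (1.36, adjusted p = 1.45e-10) and SMARCD1 read 17.08, 16.45 and 14.77 (1.21, adjusted p = 3.64e-09). BCL11A and BCL11B were called at 1.19 each, and all 5 groups lay above wild type.

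FOXL1, a marker of subepithelial gut mesenchyme, rose in 8 clones and fell in none. It read 0.4483, 0.2248 and 0.4068 CPM in wild type. ARID1B knockout read 1.948, 1.95 and 1.749 (2.39, SE 0.343, adjusted p = 1.18e-07, edgeR), DPF1 read 1.719, 1.989 and 1.612 (2.29, SE 0.344, adjusted p = 2.31e-06) and BCL11A read 1.796, 1.494 and 1.354 (2.09, SE 0.347, adjusted p = 6.84e-06). All of these libraries lay above wild type. ACTB (2.06), BCL11B (1.55), SMARCD3 (1.31), BCL7A (1.26) and BRD7 (1.26) were the other clones. The calls in BCL11B, SMARCD3, BCL7A and BRD7 were lost without the replicate-2 libraries (0.89, 1.11, 0.89 and 1.07), those in SMARCD3, BCL7A and BRD7 without wild-type replicate 2 (1.05, 1.00 and 1.00), those in BCL7A and BRD7 without the replicate-1 libraries (1.30 and 1.19) and that in SMARCD3 without the replicate-3 libraries (1.24). The neighbours did not always go together. FOXF1 and FOXL1 both rose in BCL11A, BCL11B and SMARCD3, FOXF1 fell while FOXL1 rose in DPF1, and in SMARCA4 clone 2878-4 FOXF1 fell while FOXL1 stood at -0.15. FOXC2 passed neither filter and reached at most 11 counts in a knockout library.

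FOXF2, a factor of palate and brain-vessel mesenchyme, fell in both SMARCA4 clones and in no other clone. Its wild-type libraries read 25.55, 23.56 and 22.83 CPM. Clone 2878-4 read 1.18, 1.3 and 1.259 (-4.23, SE 0.131, adjusted p = 1.58e-34, edgeR) and clone 2878-6 read 8.464, 9.675 and 8.567 (-1.42, SE 0.106, adjusted p = 3.56e-17). The clones did not overlap each other or wild type and differed by -2.81 (adjusted p = 8.33e-25). FOXC1, its neighbour and a factor of eye and vessel development, was called in no clone and ranged from -0.88 in ARID1B to 0.23 in ACTB, with an adjusted p of at most 0.05 in 14 clones.

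Between the SMARCA4 clones 4 members were called, beside 1.85% of genes, and FOXA1, FOXF1 and FOXF2 among them were lower in 2878-4 than in 2878-6. FOXA2 was the member called between the ARID1A clones, beside 1.26% of genes.

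**Figure D3:**
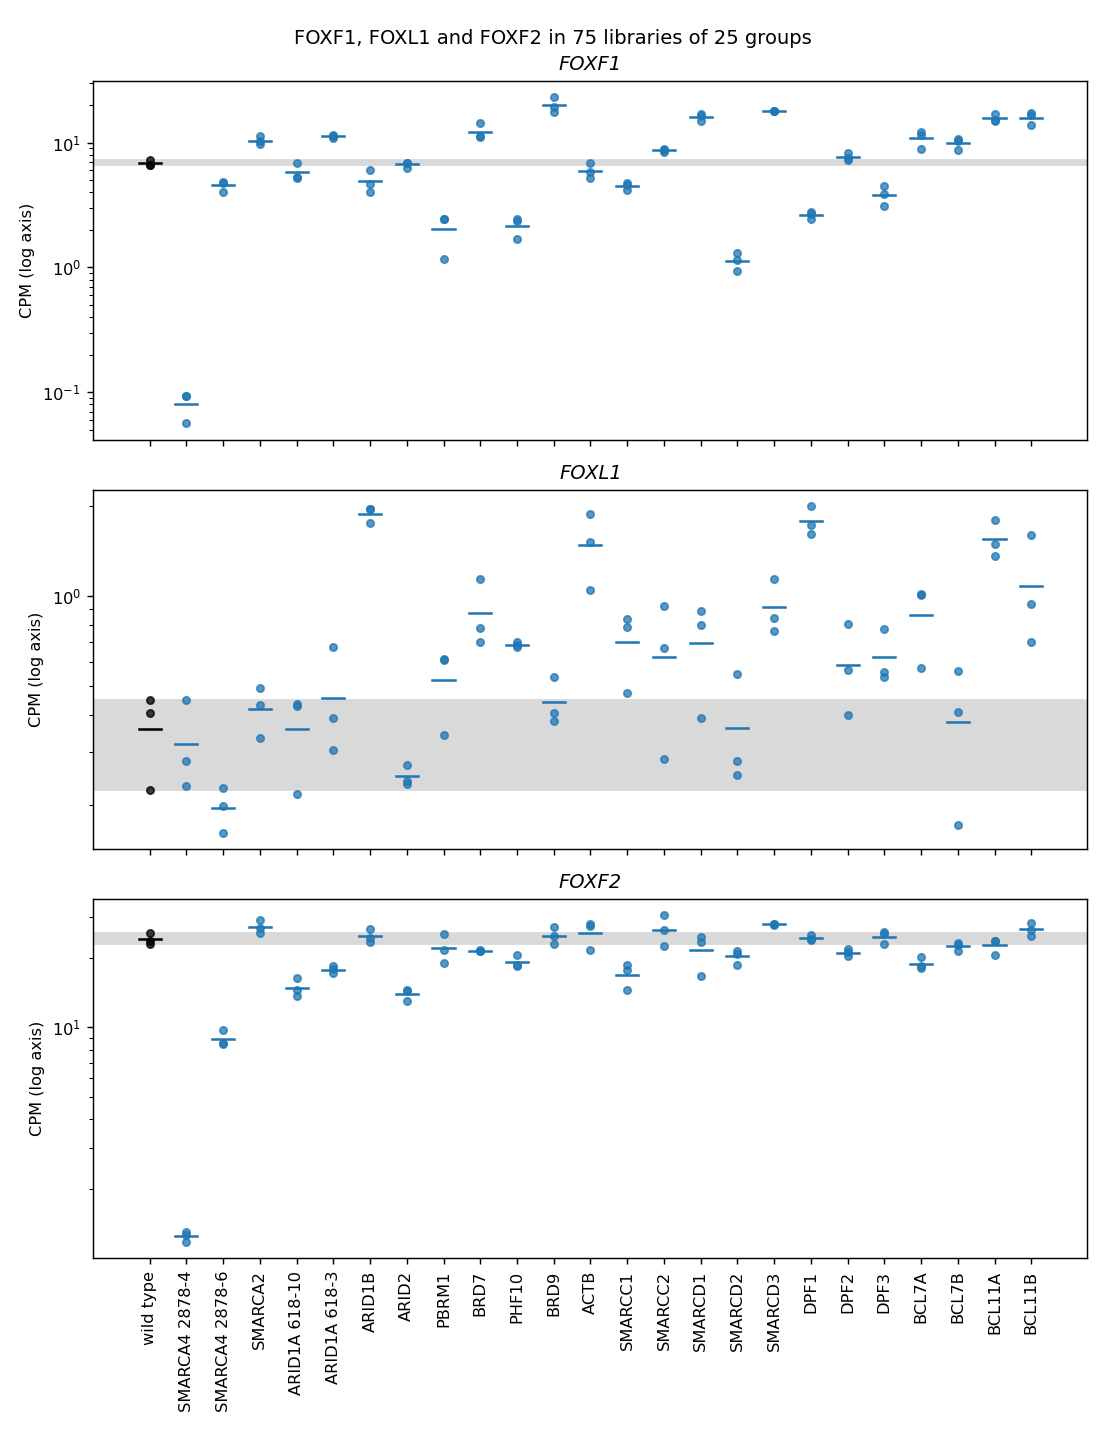
CPM on a log axis of FOXF1, FOXL1 and FOXF2 in the 75 knockout libraries (points), with the group mean (bar) and the wild-type range (grey band). FOXF1 and FOXF2 lie lowest in SMARCA4 clone 2878-4, and FOXL1 lies above wild type in ARID1B, DPF1 and BCL11A knockout.

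FOXN4 and FOXJ1, at low counts, moved in opposite directions in the SMARCA4 clones. FOXN4, a factor of retinal and spinal progenitors, read 20, 29 and 21 counts in wild type. Clone 2878-4 read 2, 2 and 2, which is at least 7.6-fold lower against a floor of 3 counts per library (fitted -3.41, adjusted p = 1.5e-09, edgeR), clone 2878-6 read 2, 2 and 5 (-2.87, adjusted p = 2.22e-08) and ARID2 knockout read 6, 4 and 6 (-2.05, adjusted p = 1.06e-05). FOXN4 was lower in BCL7B knockout as well (-1.54), and no library of these 4 groups reached the wild-type range. BCL11B knockout read 4.015, 3.333 and 3.863 CPM against 1.121, 1.304 and 0.9492 in wild type (1.69, SE 0.267, adjusted p = 2.23e-06). BCL11A read 2.572, 2.428 and 3.611 (1.33, adjusted p = 0.000223) and DPF3 read 2.51, 2.581 and 3.011 (1.27, adjusted p = 0.00153). SMARCA2 (1.07) and SMARCD3 (1.01) were called too. Without the replicate-3 libraries 4 of these 5 calls were lost, at 1.02 in BCL11A, 1.06 in DPF3, 1.11 in SMARCA2 and 0.85 in SMARCD3. The SMARCA2 and SMARCD3 calls were lost without the replicate-1 libraries (0.99 and 1.01) and without wild-type replicate 3 (0.96 and 0.90), and the SMARCA2 call without the replicate-2 libraries (1.11).

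FOXJ1, the switch of motile cilia, read 7 counts in each wild-type library. SMARCA4 clone 2878-4 read 14, 26 and 27 (1.70, SE 0.388, adjusted p = 0.000323, edgeR) and clone 2878-6 read 23, 27 and 25 (1.86, SE 0.384, adjusted p = 7.74e-05). ARID1B knockout read 1, 1 and 2 counts, at least 2.2-fold below wild type against a floor of 3 counts per library (adjusted p = 0.00512), a call lost without the replicate-1 libraries (-1.97). Of 16 ciliary genes 10 were tested, and in each SMARCA4 clone 4 rose and 0 fell: the axonemal dyneins DNAH5 (2.20 and 2.17) and DNAH11 (1.36 and 1.39), the regulator RFX2 (1.24 and 1.21) and the tubulin TUBA1A (1.64 and 1.56), which neurons also use. The list medians were 0.555 and 0.633, against -0.0198 and -0.0208 over all genes. In ARID1B knockout 1 fell (RFX3, -1.04). Over all genes 5.99% were called higher in clone 2878-4 and 5.53% in 2878-6, and 3.4% were called lower in ARID1B knockout. The SMARCA4 clones, in which FOXA3, FOXD3 and FOXJ1 rose, had all 5 tested fibroblast markers higher: their 8 listed markers summed to 410.9 to 530.7 CPM in 2878-4 and 336.7 to 454.9 in 2878-6, against 103.3 to 124.8 in wild type, with COL3A1 at 4.15 and 4.97. The part of these markers in the forkhead results was not tested.

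FOXO, FOXM1, FOXK and the other broadly used members were called in no clone by the fit without GC offsets, whether or not their p was small. FOXO1 ranged from -0.81 in SMARCC2 to 0.59 in SMARCC1 with an adjusted p of at most 0.05 in 14 clones, and FOXO3 from -0.70 in SMARCA4 clone 2878-4 to 0.72 in SMARCC2 with 3. FOXO4 ranged from -0.24 to 0.35 and FOXO6 from -0.33 to 0.64. With offsets for GC content FOXO6 met the calling rule in SMARCC2 knockout, at -1.02 against -0.32 without them (adjusted p = 1.9e-06 and 0.123, edgeR). FOXO3 shares 27.8% of its 50-base runs with other genes, chiefly FOXO3B, so its counts are uncertain. Of 30 FOXO target genes 26 were tested. SMARCA4 clone 2878-4 had 3 higher and 2 lower, among them the kinase inhibitor CDKN2B (1.53) and the glucose-sensing arrestin TXNIP (-1.22), with a list median of -0.396 against -0.0198 over all genes. Clone 2878-6 had 2 higher and 3 lower (median -0.298 against -0.0208), with CDKN2B at 1.66 and TXNIP at -1.40, and ARID1A clones had 3 higher and 0 lower each. Over all genes 5.99% were called higher and 5.28% lower in 2878-4, and 5.53% and 4.72% in 2878-6. In ARID1A clone 618-10 these shares were 3.84% and 2.44%, and in 618-3 they were 3.53% and 2.57%.

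FOXM1, which drives the genes of mitosis, ranged from a log2 fold change of -0.31 in ARID2 to 0.16 in SMARCD3 and had an adjusted p of at most 0.05 in 0 clones. All 24 of its listed target genes were tested, and 1 was called in 1 clone, UBE2C in BCL7A knockout (-1.20, adjusted p = 0.0498, edgeR). FOXK1 ranged from -0.23 to 0.39 and FOXK2 from -0.30 to 0.17. FOXJ2 (-0.13 to 0.15), FOXJ3 (-0.08 to 0.29), FOXN2 (-0.55 to 0.43), FOXN3 (-0.36 to 0.54) and FOXE1 (-0.41 to 0.65) stayed within 1 on the log2 scale. FOXH1, a partner of SMAD proteins, ranged from -1.24 in BRD9 to 0.85 in SMARCC1 without a call (adjusted p = 0.229 and 0.243), and 31.4% of its 50-base runs are shared, chiefly with KIFC2, which overlaps it on the other strand.

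The 12 members that failed the filter in the knockout table were FOXB1, FOXB2, FOXC2, FOXE3, FOXI1, FOXI2, FOXL2, FOXN1, FOXQ1, FOXR1, FOXR2 and FOXS1. Their highest count in any of the 75 libraries was between 1 and 11. FOXR1 stood at 1 in all 75, and FOXC2, FOXI2 and FOXQ1 reached 11. Differences in these genes were not detectable at this depth.

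The double-loss table asks what a loss of ARID2 and SMARCA4 together does, and there 19 of 140 pairs of a member and a group were called against wild type with the control knockdown (13.6%, beside 5.22% of all pairs). Members were higher in 6 and lower in 13 (beside 2.52% and 2.7% of all). Counts by group were 6 of 28 members in SMARCA4 knockout (beside 6.09% of genes), 7 in SMARCA4 knockout with ARID2 knockdown (8.55%), 5 in ARID2 knockout with SMARCA4 knockdown (9.31%), 1 in ARID2 knockout (1.57%) and 0 in wild type with both knockdowns (0.562%). In that last group 7 members had an unadjusted p under 0.05 by edgeR, and DESeq2 called 0. Among the 6 groups 9 of 28 members differed, beside 12.7% of genes, with a median range of 0.988 against 0.667. The tables were deposited separately and each was fitted alone. All 5 comparisons share the same 2 control libraries, and the clones behind this table are not given in the labels.

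FOXA1 read 71.81 and 89.54 CPM in wild type with the control knockdown. SMARCA4 knockout read 6.216 and 5.555 (-3.82, SE 0.348, adjusted p = 6.22e-05, edgeR), and with ARID2 knockdown 4.557 and 6.294 (-3.94, SE 0.354, adjusted p = 5.15e-05). ARID2 knockout with SMARCA4 knockdown read 18.73 and 33.81 (-1.66, SE 0.315, adjusted p = 0.0064). These groups lay below the control. ARID2 knockout read 67.91 and 66.16 CPM, also below both control libraries but without a call, and wild type with both knockdowns read 50.94 and 83.48. Within ARID2 knockout the SMARCA4 knockdown changed FOXA1 by -1.40 (adjusted p = 0.0341). TTC6 fell with it, at -3.23, -4.32 and -1.87 in the same 3 groups.

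FOXD3 read 4.464 and 5.359 CPM in the control. It read 18.7 and 12.63 in SMARCA4 knockout (1.63, SE 0.344, adjusted p = 0.0125, edgeR), 32.02 and 33.1 with ARID2 knockdown added (2.69, SE 0.35, adjusted p = 0.000516) and 22.71 and 36.82 in ARID2 knockout with SMARCA4 knockdown (2.55, SE 0.35, adjusted p = 0.00117). All of these lay above the control. Without control replicate 1 the SMARCA4 knockout call was lost (1.5, adjusted p = 0.0894). ARID2 knockout averaged 8.899 CPM and wild type with both knockdowns 9.979, at 0.86 and 1.01 with adjusted p of 0.441 and 0.235. Within ARID2 knockout the SMARCA4 knockdown raised FOXD3 by 1.70 (adjusted p = 0.0217).

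FOXP2 read 8 and 13 counts in the control, and rose in ARID2 knockout to 5.796 and 5.069 CPM from 0.5102 and 1.072 (2.80, SE 0.371, adjusted p = 0.00238, edgeR). It stood at 1 count in both libraries of SMARCA4 knockout (at least 4.27-fold lower, against a floor of 3 counts per library, adjusted p = 0.00381) and of SMARCA4 knockout with ARID2 knockdown (at least 3.64-fold lower, adjusted p = 0.00481). ARID2 knockout with SMARCA4 knockdown read 1.391 and 1.423 CPM, a difference of -2.0 within ARID2 knockout (adjusted p = 0.0125). FOXP2 was thus high with ARID2 lost alone, and low or intermediate where SMARCA4 was lost or lowered as well. It read 1.928 and 1.971 CPM in wild type with both knockdowns (1.32, adjusted p = 0.151).

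**Figure D4:**
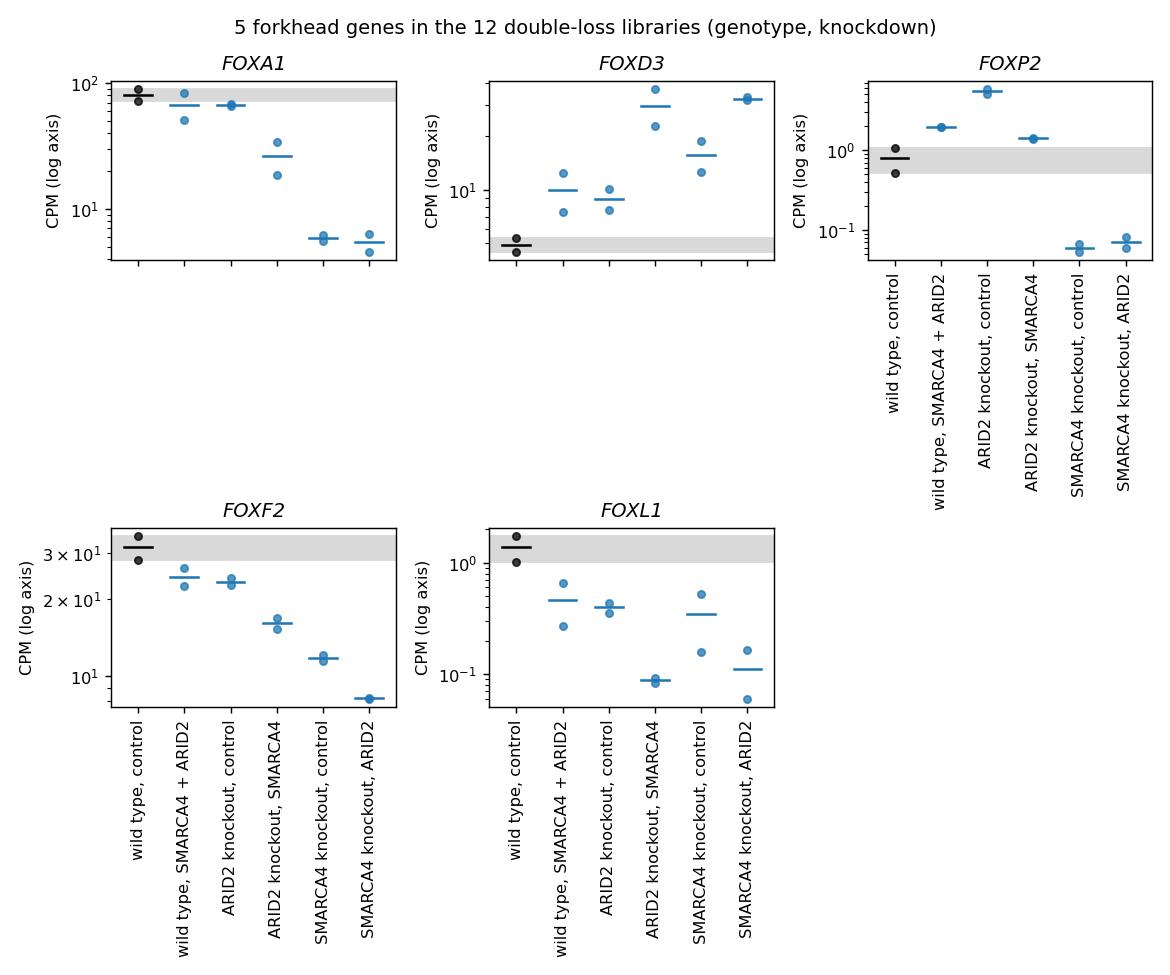
CPM on a log axis of FOXA1, FOXD3, FOXP2, FOXF2 and FOXL1 in the 12 libraries of the double-loss table (points) with the mean of each group of 2 (bar) and the range of the control libraries (grey band). FOXA1 and FOXP2 lie lowest in the SMARCA4 knockout groups, FOXD3 is highest in SMARCA4 knockout with ARID2 knockdown, and FOXP2 is highest in ARID2 knockout.

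FOXF2 read 28.31 and 34.96 CPM in the control and fell in SMARCA4 knockout to 11.42 and 12.1 (-1.47, adjusted p = 0.00103, edgeR), with ARID2 knockdown to 8.275 and 8.174 (-1.98, adjusted p = 0.000145), and in ARID2 knockout with SMARCA4 knockdown to 15.2 and 16.9 (-1.03, adjusted p = 0.00814, lost without control replicate 2 at -0.87). No library of these groups overlapped the control. FOXF1, which was at least 46-fold lower in SMARCA4 clone 2878-4, averaged 6.185 CPM in SMARCA4 knockout here against 4.132 in the control (0.55, adjusted p = 0.491). FOXP1 averaged 12.05 against 19.16 CPM and was not called at -0.71 (adjusted p = 0.0468).

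FOXL1 read 16 and 21 counts in the control, 1 and 1 in ARID2 knockout with SMARCA4 knockdown (at least 5.04-fold lower, adjusted p = 0.00919, edgeR) and 1 and 2 in SMARCA4 knockout with ARID2 knockdown (at least 6.41-fold lower on a floor of 3 counts per library, as before, adjusted p = 0.00702). FOXA3 read 11 and 5 counts in the control and 46 and 55 in SMARCA4 knockout (2.35, adjusted p = 0.0059, lost without control replicate 2 at 2.06). It rose within ARID2 knockout on SMARCA4 knockdown (2.30, adjusted p = 0.0416), a call that DESeq2 and a fit without the low-count filter did not make (adjusted p = 0.0648 and 0.0583). FOXN4 fell in SMARCA4 knockout with ARID2 knockdown (20 and 19 counts to 6 and 5; -1.91, adjusted p = 0.012), lost with DESeq2 (adjusted p = 0.0866) and without control replicate 2 (-1.75). FOXO1 read 28.76 and 26.8 CPM in the control and 65.91 and 53.39 in ARID2 knockout with SMARCA4 knockdown (1.04, adjusted p = 0.00355), a call lost without control replicate 2 at 1.00.

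For the second loss itself, SMARCA4 knockdown inside ARID2 knockout called 4 members, FOXA1 and FOXP2 lower and FOXA3 and FOXD3 higher, beside 2.88% of genes. ARID2 knockdown inside SMARCA4 knockout called 0 members by edgeR and by DESeq2, beside 0.0205% of genes, with 4 members at an unadjusted p under 0.05. ARID2 mRNA averaged 25.79 CPM with that knockdown, against 30.92 and 45.09 in the control libraries, and SMARCA4 mRNA averaged 19.47 CPM in ARID2 knockout with SMARCA4 knockdown against 307.2 in the control.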

How the data were processed

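Poly-A RNA was sequenced as stranded libraries with single reads of 50 bases, per the labels. The submitters' processing notes name Trimmomatic, Bowtie, Picard, DESeq2 and the builds GRCh37 and hg19. For versions, counting tool, annotation and strand use, the entry is: not given in the sources used here. The authors deposited estimated counts per gene in a knockout and a double-loss table, and values were rounded to whole numbers before testing. The deposited log2 TPM table served as an alternative. In it the authors' values differed from log2 CPM by a median of 0.01 over 13059 genes. Groups came from the labels, and 8 columns matched to no sample were not used.

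Counts were fitted with edgeR 4.0.16 in R 4.3.3 (filterByExpr, TMM scaling, robust quasi-likelihood, every group as a term, each table fitted whole), with p-values adjusted by Benjamini-Hochberg over all 16159 or 14601 genes tested. A call needed an adjusted p of at most 0.05 and a log2 fold change of at least 1 in size. CPM is the count over the library total. Folds of groups at 3 counts or fewer in every library are bounds against a floor of 3 counts per library. Alternatives used DESeq2 1.42.0, limma 3.58.1, other scalings and filters, left-out libraries and a replicate block. Shared 50-base runs and GC content came from reference transcripts. The scripts were tested on simulated data.

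Members called in at least 1 clone and averaging 1 CPM or more in some group were named with wild type and the clones of largest change in each direction; FOXA1, FOXA2, FOXD3 and FOXP2 were given in every group. The members and lists were chosen with earlier results of these data known. Some genes stand in the counts and are not reported here by name. In the knockout table each clone library was set beside the wild-type library of the same number, which gave 72 pairs. Their deviations from the group means correlated from -0.31 to 0.443 (median 0.026), with 30 over 0.1. For ARID2, DPF3, SMARCA2, SMARCC1 and SMARCD1 knockout every pair was over 0.1. Whether some clones shared a source with wild type was not tested, and the numbers were not taken to pair samples there. In the double-loss table the 5 distinct values ran from 0.0929 to 0.527 with 4 over 0.1, all positive, which leaves a shared source possible, and the labels name none. The fit without the block was kept, with the block as an alternative.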

Additional observations from a re-analysis of the deposited data

Results flagged for a closer look

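Clones with the same gene targeted differed beyond the spread of their libraries in the forkhead results below (edgeR's quasi-likelihood test of the difference itself, 3 libraries per clone). Between the ARID1A clones, FOXA2 was lower in 618-10 than in 618-3, at -3.19 on the log2 scale (adjusted p = 2.82e-11). Between the SMARCA4 clones, the difference of 2878-4 minus 2878-6 was -1.77 for FOXA1 (adjusted p = 1.88e-08), -5.67 for FOXF1 (adjusted p = 1.06e-23) and -2.81 for FOXF2 (adjusted p = 8.33e-25). In each of these 4 the libraries of the clones did not overlap. The FOXA2 and FOXF1 values are fitted, with the lower clone at 3 counts or fewer in every library. Against a floor of 3 counts per library, FOXA2 differed at least 7.47-fold and FOXF1 at least 30.5-fold. For FOXF1 a single SMARCA4 clone was called against wild type, and for FOXA1 and FOXF2 both were.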

How the results depend on the processing

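Of 111 named differences 87 kept their call under every alternative run for them, 24 lost it under at least 1, and 0 reversed. Without the fold threshold there were 106 forkhead calls in the knockout table, higher than wild type, in place of 46, and 90 forkhead calls in the knockout table, lower than wild type, in place of 37, or 14.2% and 12.1% of the pairs beside 7.28% and 6.78% of all pairs of a gene and a clone. Leaving out a replicate from every group gave 35 to 44 higher and 34 to 37 lower calls, leaving out a wild-type library 39 to 51 and 36 to 38, and leaving out a double-loss control library 4 to 6 and 12 to 14. Without replicate 1 of every group, 2 members were called between the ARID1A clones in place of 1, and without the others 1. Counts were 39 and 34 with each clone fitted with wild type alone, 44 and 35 on the authors' log2 TPM, and 45 and 35 without the SMARCC2 clone, which was chosen after seeing the data. With the replicate block the knockout counts stayed at 46 and 37, the double-loss counts were 8 and 16 in place of 6 and 13 (added were FOXA3 at 1.34, FOXD4 at 1.74 and FOXN4 at -1.26 in ARID2 knockout with SMARCA4 knockdown, and FOXL1 at -2.08 and FOXN4 at -1.22 in SMARCA4 knockout), 11 double-loss members differed among groups in place of 9, and all 111 named calls were kept. Leaving out a numbered replicate from every double-loss group was not run, since it leaves 1 library per group, and neither was DESeq2 on wild type against the mean of the clones. Depth limits the members at a few counts, where 3 counts are worth 0.1 to 0.201 CPM in the knockout table and 0.152 to 0.328 in the double-loss table.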

Other observations

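Single genes of the lists were called in further clones by edgeR's quasi-likelihood test. Of 7 tested genes linked to FOXP2, the ARID1A clones had 2 higher and 2 lower (618-10, median 0.663 against -0.012 over all genes) and 3 higher and 2 lower (618-3, median 0.279 against -0.00994): SRPX2 rose by 4.38 and 5.02 on the log2 scale, and CNTNAP2 (-3.10 and -5.97) and MET (-3.40 and -3.11) fell. In BCL11A knockout 0 of these genes rose and 3 fell, with a median of -0.974 against -0.00656. Of 10 tested ciliary genes, DNAH5 (1.05 and 1.13) and DNAH11 (1.67 and 1.63) rose in the ARID1A clones, with list medians of 0.536 and 0.684, while FOXJ1 itself was not called there. Over all genes 3.84% were called higher and 2.44% lower in 618-10, and 3.53% and 2.57% in 618-3. In BCL11A knockout these shares were 2.48% and 1.66%.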
